A study of Mus musculus with 12 samples.

Results

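The comparison set lungs of A/J mice whose sample titles begin with AJ against lungs of the same strain, time point and treatment whose titles begin with LZ. A/J is an inbred mouse strain prone to lung tumours, and the animals came from Jackson Labs. All samples were normal controls, called untreated by the submitters and timed from an injection of saline, and the labels name no other treatment, transgene or altered allele. At 24 to 26 weeks there were 3 AJ samples (AJ1, AJ2 and AJ4) and 2 LZ samples (LZ2 and LZ3), chosen by title and time point, so the comparison used 5 of the 12 samples of the series. The other 7 samples, LZ22 to LZ25 and LZ61 to LZ63, were saline controls at 42 weeks. They entered the estimate of spread and the mean signal by which probe sets were filtered and picked to stand for a gene. They also served as LZ-titled lungs to set the AJ arrays beside, and were compared with each other by run day. Sex and age at injection were not found in the labels, which also do not state that each sample was its own mouse. The p-values therefore speak only for the scatter among these samples.

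The labels do not say what the prefixes AJ and LZ stand for. The run records placed AJ1, AJ2 and AJ4 on run day 1, with the sample type entered as unknown, and LZ2 and LZ3 on run day 2, with the sample type entered as mouse RNA. Each array was hybridised and scanned within its own day. Title prefix, run day and any cohort of mice were therefore the same split, and they cannot be told apart in any value that follows. Each sample was read on one Affymetrix MG_U74Av2 array as a MAS5 signal, a linear intensity per probe set. Lung identity was checked on the defining markers: Sftpc and Scgb1a1, the surfactant protein of alveolar type 2 cells and the secretoglobin of club cells, stood at signals of at least 18314 and 16227 on the 5 arrays, while the Sftpd probe set was dim on them at 27.9 to 72.3.

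A lung homogenate pools epithelium, endothelium, mesenchyme, blood and resident immune cells, so a signal follows both the number of cells of a type and the RNA each holds, and fewer cells and less RNA per cell cannot be told apart. Interferon regulatory factors, induced by interferon gamma among other signals, bind the interferon-stimulated response element (ISRE). Among the targets of interferon gamma are the immunity-related GTPases and the guanylate-binding proteins, large GTPases that act on vacuoles holding intracellular microbes. D-type cyclins link growth signals to cell division, Argonaute proteins carry microRNAs to messenger RNAs, and tenascins and collagens form the matrix around alveoli and vessels.

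The promoters of the leading interferon-regulated genes are shown because Igtp, Gbp7, Irgm2 and Irgm1 were among the 15 genes with the largest rise on the AJ arrays. Each stretch holds the 110 bases before the gene's start (RefSeq, GRCm38.p6, written 5′ to 3′ on the gene's strand), and capitals mark matches on either strand to the ISRE core, which is GAAA, any 2 bases and GAAA again.
Igtp, chr11:58199446-58199555, plus strand: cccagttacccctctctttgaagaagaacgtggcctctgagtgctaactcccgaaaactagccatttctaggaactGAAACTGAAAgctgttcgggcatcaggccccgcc
Irgm2, chr11:58214867-58214976, plus strand: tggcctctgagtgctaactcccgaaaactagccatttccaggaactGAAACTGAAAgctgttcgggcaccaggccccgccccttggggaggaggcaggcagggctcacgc
Irgm1, chr11:48871421-48871530, minus strand: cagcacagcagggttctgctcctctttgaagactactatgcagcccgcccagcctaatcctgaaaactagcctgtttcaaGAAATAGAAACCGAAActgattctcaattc
Gbp7, chr3:142530226-142530335, plus strand: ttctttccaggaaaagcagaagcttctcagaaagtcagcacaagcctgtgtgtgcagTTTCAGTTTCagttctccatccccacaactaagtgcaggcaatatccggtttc
In Irgm1 the capitals cover a pair of ISRE core matches that share GAAA. Of 32851 promoters read over the same window, 1.11% held the ISRE core, as did each of the 4 shown. The Igtp and Irgm2 stretches are near-identical over a long run that includes the match, so they are not separate instances. Iigp1, also among the genes with the largest rise, is not shown. The same window of Tapbp, which also passed the test, had 0 matches. A match of letters is a description of the window and not a binding site.

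Across the table, 186 of 7453 probe sets (2.50%) passed the test, limma at 5% false discovery. Of these, 84 (1.13%) were higher and 102 (1.37%) were lower on the AJ arrays. Taken per gene, with the brightest probe set standing for the gene, 125 of 5731 genes (2.18%) passed, 59 higher (1.03%) and 66 lower (1.15%). The split between directions moved with the scaling: with array medians made equal, 58 probe sets were higher and 198 lower. Over all genes the median log2 difference was 0.04, and 54.9% of genes had a positive difference. The call count rested on LZ3 as well: without it 0 probe sets passed in limma, with 868 at an unadjusted p under 0.05. Without AJ4 19 passed, without LZ2 35 and without AJ2 54.

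**Figure D1:**
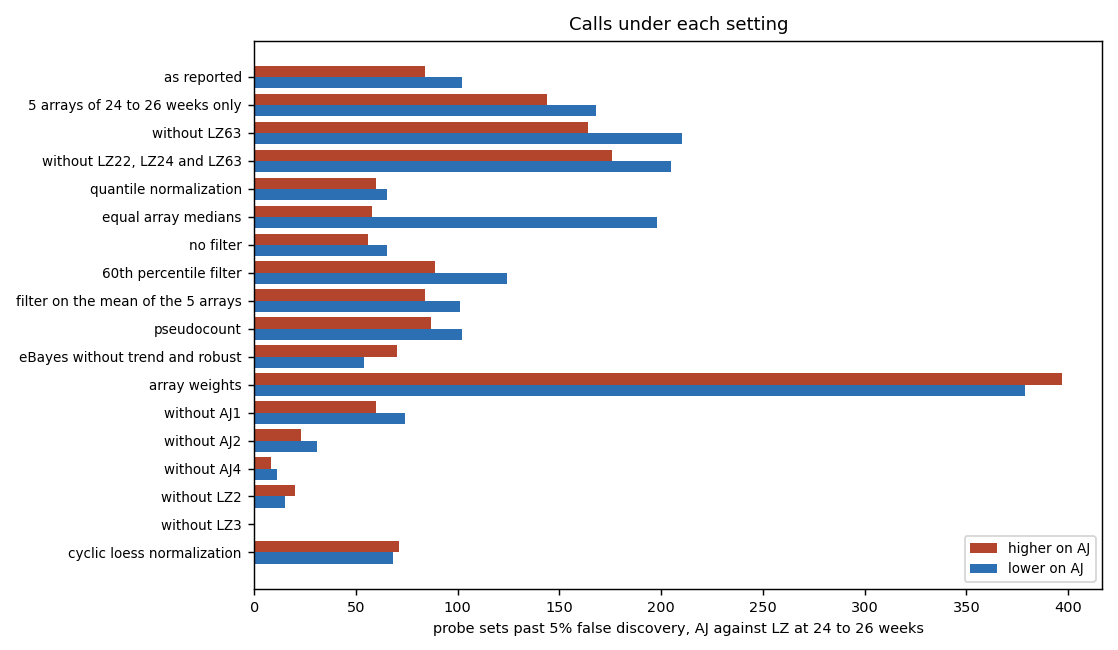
Number of probe sets past 5% false discovery, higher (red) or lower (blue) on the AJ arrays relative to the LZ arrays of that time point, under each processing setting. The count was 186 as reported, 776 with array weights and 0 without LZ3.

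Between whole arrays, the Spearman correlation over 7453 probe sets was 0.963 to 0.979 among the 3 AJ arrays, 0.965 between LZ2 and LZ3, and 0.946 to 0.954 for AJ against LZ. The top of the signal scale differed between prefixes. The brightest probe set read 19066 to 21497 on the AJ arrays, against 30665 to 39943 on LZ2 and LZ3 and 29121 to 43011 at 42 weeks. Of the spiked bacterial transcripts, BioC read 596 to 714 on the AJ arrays and 2275 to 3419 on the LZ arrays, while BioB read 676 to 774 on the AJ arrays and 285 to 398 on the LZ arrays. The 3′ to 5′ ratio of the actin control, a sign of RNA integrity and labelling, was 1.24 to 1.28 on the AJ arrays and 1.05 to 1.06 on the LZ arrays. That ratio for Gapdh overlapped, at 0.77 to 0.80 on AJ and 0.77 to 0.88 on LZ. With 3 arrays against 2 the smallest two-sided exact permutation p is 0.2, which the actin ratio, BioB and BioC reached. The part of labelling and scanning in the gene differences was not tested.

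**Figure D2:**
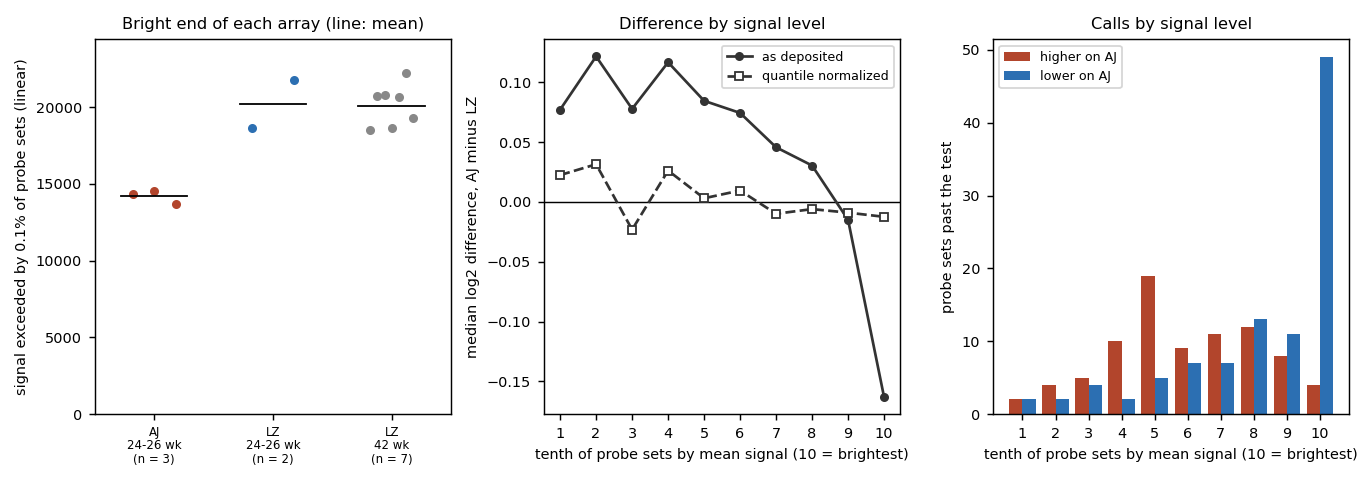
Left, the MAS5 signal that 0.1% of probe sets exceed on each array, with group means as lines: 13711 to 14541 on AJ, 18667 and 21784 on LZ at 24 to 26 weeks. Middle, the median log2 difference (AJ minus LZ) in each of 10 equal classes of probe sets by mean signal, before and after quantile normalization; right, the probe sets past the test in each class, with 49 of the 102 lower ones in the brightest 10%.

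The interferon gamma group stood highest among the gene lists. Of 17 measured GTPases and regulators, 5 were higher and 0 lower, beside 1.03% and 1.15% of all genes, and the median log2 difference was 0.84. Igtp, a GTPase of the immunity-related family on chromosome 11, had the largest rise among the genes past the test. Its signal was 1537, 1525 and 1647 on AJ1, AJ2 and AJ4, against 438 and 294 on LZ2 and LZ3. The difference was 2.13 on the log2 scale, 4.37-fold higher, with a standard error of 0.33 (limma, adjusted p 0.0099). Gbp7, a guanylate-binding protein on chromosome 3, gave 3621, 2389.7 and 3588 on AJ1, AJ2 and AJ4, against 776 and 710.2 on LZ2 and LZ3. The difference was 2.08 on the log2 scale, 4.23-fold higher, with a standard error of 0.43 (limma, adjusted p 0.038). No AJ value of either gene overlapped an LZ value of any time point, the 42-week LZ arrays reaching 1179.7 for Igtp and 1665 for Gbp7. Iigp1, Irgm2 and Irgm1, further immunity-related GTPases, differed by 1.66, 1.52 and 1.28 on the log2 scale (adjusted p 0.048, 0.019 and 0.020), and Iigp1 lost its call after quantile normalization (adjusted p 0.055). A dimmer Iigp1 probe set differed by 1.94 as deposited (limma, adjusted p 0.014). Ifi47 and Gbp3, chosen after their values were seen, differed by 1.33 and 1.58 without passing (adjusted p 0.054 and 0.073). Jak2, which relays the receptor's signal and was also picked with its value seen, was the 1 member with a negative difference, at -0.13.

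Genes that load peptides on MHC class I, which shows them to T cells, gave 1 call. Of 14 measured members, 13 had a positive difference, with a median of 0.34. Among all genes 2.18% passed. The member that passed was Tapbp, the tapasin that bridges class I molecules to the peptide transporter. Tapbp averaged 3641 ± 98.6 on the AJ arrays (SD, n = 3) and 2248 ± 97.1 on the LZ arrays (SD, n = 2). The difference was 0.70 on the log2 scale, 1.62-fold higher, with a standard error of 0.16 (limma, adjusted p 0.043). A further pair of Tapbp probe sets differed by 0.29 and 0.17 and did not pass. The transporter subunit Tap1 and the class I gene H2-Q4, both chosen after their values were seen, differed by 1.12 and 0.79 (adjusted p 0.075 and 0.075). After quantile normalization 3 of the 14 passed, all higher: Tapbp, H2-Q4 and the class I gene H2-K1. Type I interferon responses gave 0 calls in limma among 21 genes, 5 of them with an unadjusted p under 0.05, with Trim25 and Ifit1, the members of smallest p, at 0.53 and 0.58 (adjusted p 0.14 and 0.19) and a median of 0.38 over the list, or 0.12 without LZ2. Ms4a6c, a membrane protein of the MS4A family, was higher by 1.58 (adjusted p 0.045), at 332 to 638 on the AJ arrays against 127 and 163 on the LZ arrays, and lost the call after quantile normalization (adjusted p 0.066).

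**Figure D3:**
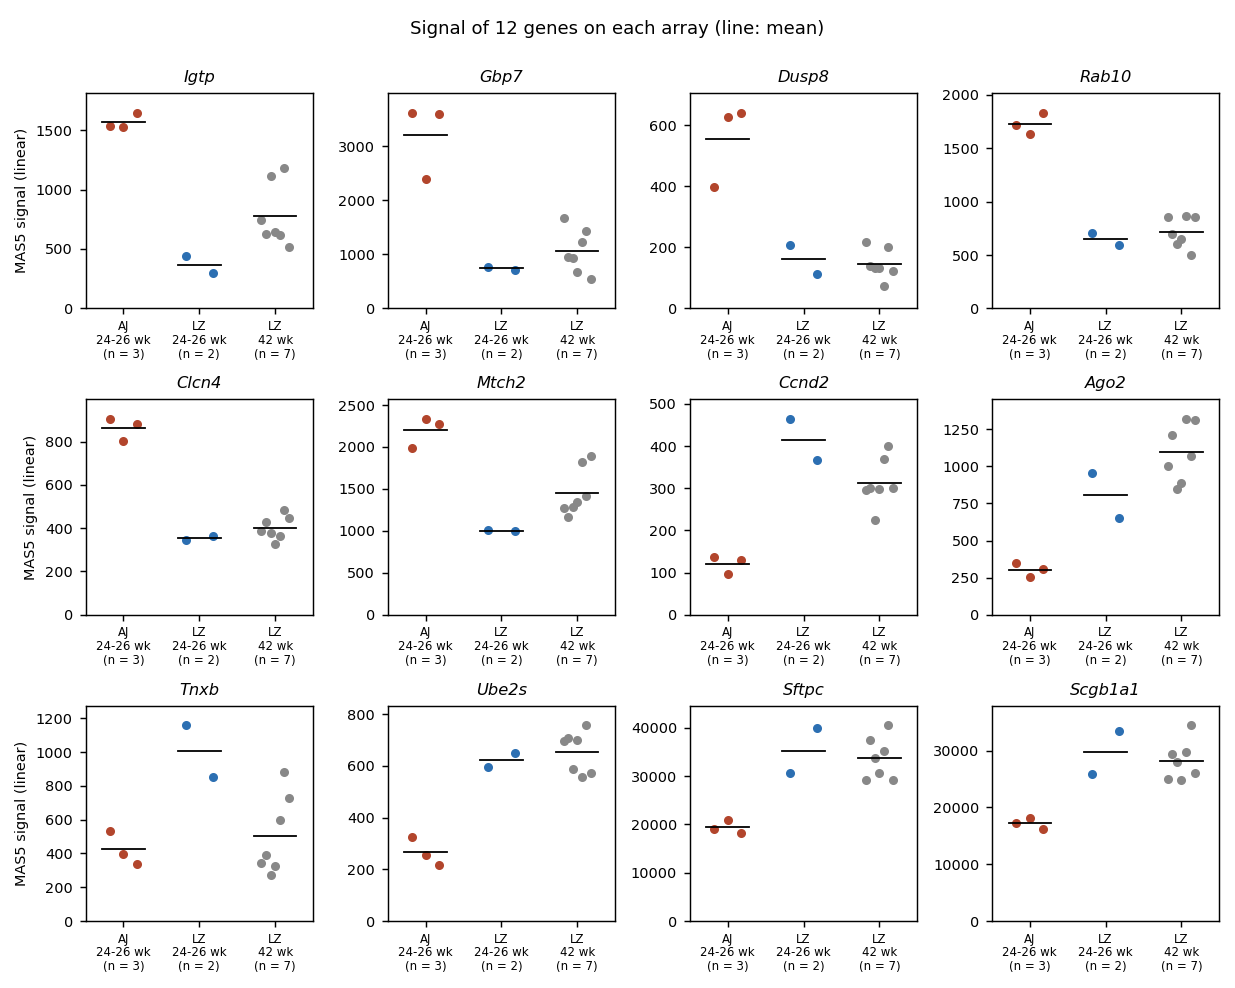
MAS5 signal (linear) of 12 genes on each array, AJ (red) and LZ (blue) at 24 to 26 weeks and LZ at 42 weeks (grey), with group means as lines. All 3 AJ points lie clear of all 9 LZ points for each gene except Tnxb, where the 42-week points span 270 to 882 and take in the AJ range of 338 to 534.

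Among genes past the test and outside the interferon genes, the largest rise was that of Dusp8. The gene, on chromosome 7, encodes a dual-specificity phosphatase that switches off the JNK and p38 kinases. Its signal was 398, 629 and 642 on AJ1, AJ2 and AJ4, against 209 and 114 on LZ2 and LZ3. The difference was 1.81 on the log2 scale, 3.51-fold higher, with a standard error of 0.40 (limma, adjusted p 0.035). The AJ values did not overlap those of any LZ array, although AJ1 stood nearer to them than AJ2 and AJ4 did. Jkamp, which encodes a membrane protein that binds JNK, was 1009.9 ± 65.2 on the AJ arrays (SD, n = 3) and 489 ± 95.4 on the LZ arrays (SD, n = 2). The difference was 1.06 on the log2 scale, 2.08-fold higher, with a standard error of 0.24 (limma, adjusted p 0.040). Of 30 measured dual-specificity phosphatases, MAP kinases and their partners, these were the 2 that passed, where 2.18% of all genes passed. The list's median was 0.10, beside 0.04 over all genes. Both Dusp8 and Jkamp lost the call after quantile normalization (adjusted p 0.052 and 0.061), with differences of 1.75 and 1.01.

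Rab10 and Clcn4 were among the other genes higher on the AJ arrays. Rab10, on chromosome 12, encodes a small GTPase that steers vesicles to the plasma membrane. Its signal was 1717, 1634 and 1835 on AJ1, AJ2 and AJ4, against 711 and 594 on LZ2 and LZ3. The difference was 1.41 on the log2 scale, 2.66-fold higher, with a standard error of 0.22 (limma, adjusted p 0.0098). A second Rab10 probe set rose as well, by 1.05 (adjusted p 0.0043). Clcn4, on chromosome 7, encodes a chloride and proton exchanger of endosomes. Its signal was 905, 804 and 880.1 on AJ1, AJ2 and AJ4, against 343 and 366 on LZ2 and LZ3. The difference was 1.28 on the log2 scale, 2.43-fold higher, with a standard error of 0.16 (limma, adjusted p 0.0043). The LZ arrays of both time points lay at or below 484 for Clcn4, and 4 of the 5 fits without one array still called it. A dimmer Clcn4 probe set differed by 0.40 and did not pass. Rab2a, Stx3, Golga5, Chmp2b and Trappc12, chosen after their values were seen, also passed. They encode a Rab GTPase of the early secretory pathway, a syntaxin of the plasma membrane, a golgin, an ESCRT subunit and a TRAPP tethering subunit, and they differed by 0.53, 0.76, 0.76, 0.83 and 0.70 (adjusted p 0.025 to 0.048). After quantile normalization Stx3, Golga5 and Trappc12 lost the call (adjusted p 0.070, 0.084 and 0.073). A dimmer Stx3 probe set differed by 0.08 and did not pass. The wider list of endoplasmic reticulum folding and early secretion held 57 measured genes with a median of 0.01, of which 1 passed, beside 2.18% of all genes. That gene was Eif2ak3, the PERK kinase that slows translation when unfolded proteins build up, with a difference of 0.98 (adjusted p 0.044, and 0.052 after quantile normalization).

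Mtch2, on chromosome 2, encodes a carrier-like protein of the outer mitochondrial membrane. Its signal was 1987, 2335 and 2277 on AJ1, AJ2 and AJ4, against 1011 and 997 on LZ2 and LZ3. The difference was 1.13 on the log2 scale, 2.19-fold higher, with a standard error of 0.14 (limma, adjusted p 0.0043). Its LZ arrays differed by less than its AJ arrays did, and 4 of the 5 fits without one array kept the call. Itpr2, a calcium-release channel of the endoplasmic reticulum, was 1396 ± 162 on the AJ arrays (SD, n = 3) and 659 ± 272 on the LZ arrays (SD, n = 2), a difference of 1.14 (adjusted p 0.015). Gucy1b1, the beta subunit of the guanylate cyclase that senses nitric oxide, was chosen after its values were seen and differed by 1.05 (adjusted p 0.028). Dnajc9, a co-chaperone that also binds histones, rose by 1.17 (adjusted p 0.0098), to 872 ± 66.7 on the AJ arrays (SD, n = 3) against 386 ± 27.9 on the LZ arrays (SD, n = 2). Tmc6, a transmembrane channel-like protein, and Zfp943, a zinc finger protein, rose by 1.06 and 1.17 (adjusted p 0.025 and 0.027). Zfp943 was among the dimmest probe sets tested, at 168 to 232 on the AJ arrays against 91.7 and 84.4 on the LZ arrays. Those LZ values lay under 108, the mean signal over the 12 arrays below which probe sets were not tested, as did its mean of 101 at 42 weeks, so it was tested because of the arrays on which it was high.

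Cell cycle regulators moved in both directions. Of 25 measured cyclins, cyclin-dependent kinases and their inhibitors, 3 were higher and 1 lower, with a median of 0.21. Of all genes, 1.03% were higher and 1.15% lower. Ccnd2, the D-type cyclin on chromosome 6, had the largest fall among the genes past the test. Its signal was 136, 96.6 and 131 on AJ1, AJ2 and AJ4, against 465 and 366 on LZ2 and LZ3. The difference was -1.78 on the log2 scale, 3.45-fold lower, with a standard error of 0.22 (limma, adjusted p 0.0043). The AJ values lay around the signal of 108, the mean level below which probe sets were left out. Ccnd1, a second D-type cyclin, rose instead. Ccnd1 averaged 2321 ± 20.9 on the AJ arrays (SD, n = 3) and 1565 ± 60.6 on the LZ arrays (SD, n = 2), a difference of 0.57 (adjusted p 0.042), while a dimmer Ccnd1 probe set differed by -0.55 and did not pass. Ccng1, a cyclin induced by p53, and Rbl2, a pocket protein of the retinoblastoma family that restrains division, rose by 1.14 and 0.92 (adjusted p 0.049 and 0.045), and both lost the call after quantile normalization (adjusted p 0.074 and 0.071). Rb1 and the inhibitor Cdkn1a, chosen after their values were seen, differed by 0.73 and 0.64 (adjusted p 0.088 and 0.19). A dimmer Cdkn1a probe set went the other way, at -0.68, and did not pass either. The 20 measured genes of DNA replication and mitosis had a median of -0.02 and 0 calls in limma, with 3 at an unadjusted p under 0.05. Their members of smallest p, Mcm4 of the replicative helicase and the tubulin Tubb5, differed by 0.54 and -0.35 (adjusted p 0.17 and 0.18). A dimmer Tubb5 probe set differed by 0.09. Of 37 p53 targets and apoptosis genes, Ccng1 was the 1 that passed, where 2.18% of all genes passed.

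Antioxidant enzymes gave 2 calls among 41 measured genes, both higher. Of all genes, 2.18% passed and 1.03% were higher. Sod1, the cytosolic superoxide dismutase, stood at 4298 ± 387 on the AJ arrays (SD, n = 3) and 2586 ± 174 on the LZ arrays (SD, n = 2). The difference was 0.73 on the log2 scale, 1.66-fold higher, with a standard error of 0.14 (limma, adjusted p 0.017). Cat, the catalase that breaks down hydrogen peroxide, differed by 0.59 (adjusted p 0.043), with 0.062 after quantile normalization and a dimmer probe set at 0.05. Txnrd1 and Gpx4, a thioredoxin reductase and a lipid peroxidase chosen after their values were seen, differed by 0.56 and 0.44 (adjusted p 0.097 and 0.099). The list's median was 0.00. Sod1 was 1 of 4 probe sets in the brightest 10% that were higher on the AJ arrays, where 49 were lower.

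RNA and protein synthesis factors split by member. Eif3e, a subunit of the initiation factor eIF3, rose by 0.95 (adjusted p 0.019), and Eif3j1, another subunit, chosen after its values were seen, by 0.94 (adjusted p 0.048, and 0.060 after quantile normalization). Eef1a1, the factor that brings charged transfer RNA to the ribosome, fell by 0.71 on the log2 scale (adjusted p 0.012) but differed by -0.13 after quantile normalization (adjusted p 0.50). Of 70 helicases and splicing factors 2 passed, a share near the 2.18% of all genes that passed. Sf3b2 rose and U2af2 fell, both parts of the machinery that recognises the branch point and the 3′ splice site. Their differences were 0.85 and -0.75 (adjusted p 0.017 and 0.0082), and both kept the call after quantile normalization (adjusted p 0.032 and 0.011). Polr2a, the largest subunit of RNA polymerase II, was chosen after its values were seen and fell by 0.86 (adjusted p 0.017), while a second Polr2a probe set differed by -0.04.

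Among genes past the test and lower on the AJ arrays, Ago2 had the second largest difference. Ago2, on chromosome 15, encodes the Argonaute protein that can cut its target messenger RNA. Its signal was 347, 254 and 308 on AJ1, AJ2 and AJ4, against 957 and 653 on LZ2 and LZ3. The difference was -1.39 on the log2 scale, 2.63-fold lower, with a standard error of 0.20 (limma, adjusted p 0.0082). Every LZ array of either time point, from 653 to 1319.5, lay above every AJ array. All 8 measured members of the Argonaute and small RNA list had a negative difference, with a median of -0.32. Ago2 was the 1 that passed, where 2.18% of all genes passed. Xrn1, the exonuclease that degrades decapped messages, chosen after its values were seen, differed by -0.80 (adjusted p 0.088), and Dicer1, which cuts microRNA precursors and was picked in the same way, by -0.08.

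Matrix genes gave 2 calls among 61 measured members, both lower, a share near the 2.18% of all genes that passed. Tnxb, on chromosome 17, encodes tenascin X, which binds collagen fibrils. Its signal was 534, 399 and 338 on AJ1, AJ2 and AJ4, against 1160.3 and 853 on LZ2 and LZ3. The difference was -1.26 on the log2 scale, 2.39-fold lower, with a standard error of 0.23 (limma, adjusted p 0.016). A second Tnxb probe set fell by 1.26 as well (adjusted p 0.014). The AJ range overlapped the 42-week LZ range of 270.0 to 882, so for this gene LZ2 and LZ3 stood toward the top of the series. Col6a2, a chain of the collagen VI microfibril, was 768 ± 61.3 on the AJ arrays (SD, n = 3) and 1149 ± 64.8 on the LZ arrays (SD, n = 2), a difference of -0.58 (adjusted p 0.045). Eln and Fmod, which encode elastin and the collagen-binding fibromodulin and were chosen after their values were seen, differed by -0.84 and -1.02 (adjusted p 0.053 and 0.062). A dimmer Eln probe set differed by -0.02. The list's median was -0.15, and 24 of its 61 members had a positive difference. Mmp12, a macrophage elastase, had the widest difference of the 28 matrix proteases and inhibitors, at 578 to 2036 on the AJ arrays against 117 and 152 on the LZ arrays. Its log2 difference of 2.80 (standard error 0.63) did not pass (adjusted p 0.052), and AJ1, with the highest value, stood far above AJ2 and AJ4. A dimmer Mmp12 probe set differed by 1.28 (limma, adjusted p 0.41).

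Of 69 measured proteasome and ubiquitin genes, with a median of 0.04, 2 passed and both fell. That share was near the 2.18% of all genes that passed. Ube2s, on chromosome 7, encodes the ubiquitin-conjugating enzyme that extends chains for the anaphase-promoting complex. Its signal was 326, 257 and 216 on AJ1, AJ2 and AJ4, against 598 and 649 on LZ2 and LZ3. The difference was -1.25 on the log2 scale, 2.37-fold lower, with a standard error of 0.19 (limma, adjusted p 0.0089). The highest AJ value was 326, and the lowest value of the 9 LZ arrays was 558. Psmd11, a subunit of the proteasome lid, fell by 0.90 (adjusted p 0.0092), but 2 dimmer Psmd11 probe sets differed by 0.09 and -0.12. Both Ube2s and Psmd11 kept the call after quantile normalization (adjusted p 0.0090 and 0.0083).

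Tcf7l1, a TCF factor of the Wnt pathway, fell by 0.94 (adjusted p 0.045), the 1 call among 54 genes of TGF-beta, BMP, Wnt and Notch signalling; its 42-week LZ range of 365 to 765 took in AJ1 and AJ4, while AJ2 lay below it at 343. Kdm6a, a histone demethylase, fell by 0.79 (adjusted p 0.033), the 1 call among 49 histone and chromatin genes, where 2.18% of all genes passed. Emd, the inner nuclear membrane protein emerin, fell by 1.01 (adjusted p 0.014), and Nek7, a kinase that takes part in inflammasome assembly, by 0.88 (adjusted p 0.0068). Among G proteins, Rhoa, Rhoj and Gna13 had differences of -0.89, -0.72 and -0.78 (adjusted p 0.045, 0.018 and 0.025), Rhoj and Gna13 chosen after their values were seen. Rhoa lost the call after quantile normalization (adjusted p 0.067). Other Rhoa probe sets differed by -0.34 and 0.12 without passing, and a second Gna13 probe set by 0.10. Rac1, a small GTPase of cell motility, fell by 0.57 (adjusted p 0.012) but lost the call after quantile normalization (adjusted p 0.20).

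Ces2g, a carboxylesterase, and Lclat1, an acyltransferase that remodels cardiolipin, fell by 1.17 and 1.21 (adjusted p 0.019 and 0.045). Bpnt2, a nucleotide phosphatase of the Golgi, averaged 1017 ± 86.1 on the AJ arrays (SD, n = 3) and 2031 ± 99.6 on the LZ arrays (SD, n = 2) (adjusted p 0.011), while its second probe set differed by -0.03. The adhesion receptor Pvr and the interleukin 3 receptor subunit Il3ra had differences of -1.10 and -0.92 (adjusted p 0.048 and 0.037). Pvr read 81.9 to 95.5 on the AJ arrays, all under the filter level of 108, against 168 and 212 on the LZ arrays, and it lost the call after quantile normalization (adjusted p 0.052). The semaphorin Sema4b averaged 147 ± 19.7 on the AJ arrays (SD, n = 3) and 292 ± 16.7 on the LZ arrays (SD, n = 2) (adjusted p 0.043), with a dimmer probe set at 0.13. Of 31 ion channels, pumps and aquaporins, Clcn4 was the 1 that rose and Atp1b3, a subunit of the sodium pump, the 1 that fell (-0.66, adjusted p 0.014). Cox6a1, a subunit of cytochrome c oxidase, was the 1 call among 59 oxidative phosphorylation genes (-0.57, adjusted p 0.017). For both lists, the share of all genes that passed was 2.18%.

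Immediate early genes, which tissues switch on within minutes of handling or stress, gave 2 calls among 47 measured genes, both lower. Among all genes 2.18% passed and 1.15% were lower. Zfp36, a protein that destabilises cytokine messages, was 692 ± 97.3 on the AJ arrays (SD, n = 3) and 1242 ± 385 on the LZ arrays (SD, n = 2), a difference of -0.82 (adjusted p 0.036). Its LZ arrays differed widely from each other, and the difference ranged from -1.14 to -0.50 when one array was left out. Nfkbia, the inhibitor of NF-kappaB and also the 1 call among 25 glucocorticoid-responsive genes, differed by -0.68 (adjusted p 0.046), with 0.079 after quantile normalization and -0.29 for a second probe set. The 42-week LZ range of Zfp36, 695 to 1111, took in AJ2 and AJ4. That of Nfkbia, 2227 to 2990, took in AJ1 and AJ4 and lay below LZ2 and LZ3, at 3555 and 3748. Fos, Jund and Junb, chosen after their values were seen, differed by -1.12, -0.93 and -0.76 without passing (adjusted p 0.090, 0.052 and 0.088). The list's median was -0.18, and 15 of its 47 members had a positive difference.

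**Figure D4:**
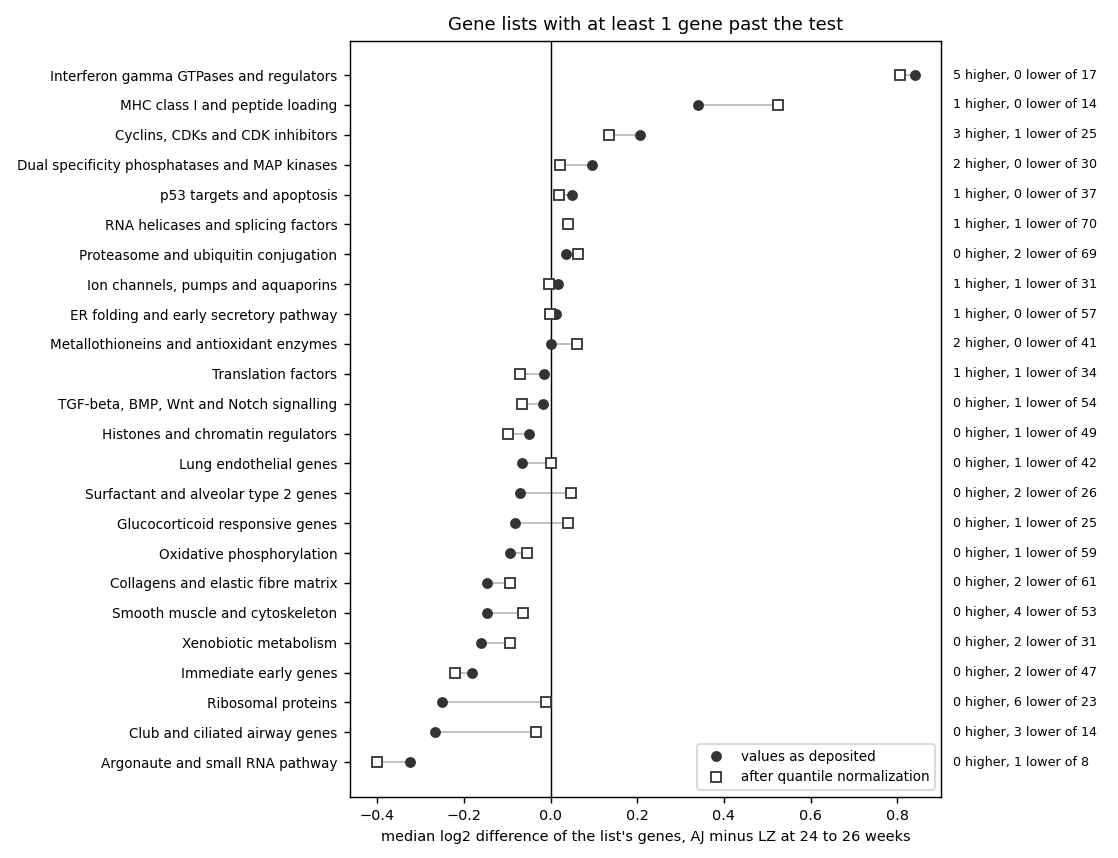
Median log2 difference (AJ minus LZ at 24 to 26 weeks) of the 24 gene lists with at least 1 gene past the test, as deposited (filled circles) and after quantile normalization (open squares), with counts of higher and lower genes at the right. The interferon gamma list stood at 0.84 and 0.81, while the ribosomal list moved to -0.01 after normalization, against -0.25 as deposited.

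Several of the most abundant lung transcripts were lower on the AJ arrays. Sftpc, the surfactant protein of alveolar type 2 cells on chromosome 14, was the brightest of them. Its signal was 18956, 21006 and 18314 on AJ1, AJ2 and AJ4, against 30665 and 39943 on LZ2 and LZ3. The difference was -0.85 on the log2 scale, 1.80-fold lower, with a standard error of 0.15 (limma, adjusted p 0.015). Scgb1a1, the club cell secretoglobin on chromosome 19, gave 17251, 18183 and 16227 on AJ1, AJ2 and AJ4, against 25839 and 33503 on LZ2 and LZ3. The difference was -0.77 on the log2 scale, 1.71-fold lower, with a standard error of 0.14 (limma, adjusted p 0.015). All AJ values of both genes lay below all 9 LZ values, yet after quantile normalization the differences were -0.16 and -0.13 (adjusted p 0.37 and 0.47). Of 49 probe sets in the brightest 10% that were lower, 9 were still called after quantile normalization; of the 53 lower ones among the other probe sets, 50 were. Over 10 classes by signal the median log2 difference ran from -0.16 in the brightest to 0.12 near the dim end, and after the normalization it lay between -0.02 and 0.03.

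Groups rich in bright genes also lost calls after this normalization. As deposited, 2.18% of all genes passed and 1.15% were lower, shares to set beside the counts that follow. Of 23 measured ribosomal proteins, 19 lay in the brightest 10%, 6 were lower and 0 higher, with a median of -0.25; after quantile normalization 0 passed in limma, 2 had an unadjusted p under 0.05 and the median was -0.01. Rps28 and Rps24 of the small subunit differed by -0.74 and -0.66 (adjusted p 0.0098 and 0.018) as deposited and by -0.31 and -0.13 after normalization. Rps3, Rps3a1, Rps18 and Rpl8 had differences of -0.55, -0.52, -0.49 and -0.44. Ribosomal and tubulin genes have near-identical copies, so their probe sets may read more than one gene. Of 14 club and ciliated cell genes, Scgb1a1, the cytochrome P450 Cyp2f2 and the tubulin Tuba1a passed, all lower, with a list median of -0.27 as deposited and -0.03 after normalization. The median of these 14 genes was 0.06 without LZ3 and -0.04 without AJ2. Cyp2f2 and Tuba1a differed by -0.50 and -0.72, and by -0.09 and -0.38 after normalization. Tuba1c, a related tubulin, and Tpt1, the translationally controlled tumour protein, both chosen after their values were seen, differed by -0.72 and -0.69. Of 26 alveolar type 2 genes, Sftpc and the mucin Muc1 passed (-0.58 for Muc1, adjusted p 0.11 after normalization), with a list median of -0.07. Sftpb, a second surfactant protein, and Ager, the alveolar type 1 receptor, did not pass, at -0.35 and -0.46, and had differences of 0.06 and 0.04 after normalization. Of 53 smooth muscle and cytoskeleton genes, Rhoa, Rac1, Tuba1a and Csrp1 passed, all lower. After quantile normalization 0 of the 53 passed in limma, and their median moved from -0.15 to -0.06. Csrp1, a LIM protein of smooth muscle, had both probe sets past the test as deposited, at -0.54 and -0.65. The brighter one lost the call after normalization (adjusted p 0.086). Ly6e was the 1 call among 42 endothelial genes (-0.62, and -0.22 after normalization). Adh1, an alcohol dehydrogenase, and Cyp2f2 were the 2 calls among 31 xenobiotic metabolism genes, and Adh1 differed by -0.73 (adjusted p 0.048, and 0.055 after normalization).

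Of 48 gene lists, 24 had no call in limma, and their medians ran from -0.25 to 0.38. Of the 435 genes in those lists, 59 had an unadjusted p under 0.05. With one array left out, the median of 26 of the 48 lists changed sign at least once. Lists of immune cells were among those with no call. The 16 B cell genes had a median of 0.05, the 11 T and NK cell genes 0.24, the 24 macrophage and dendritic cell genes -0.02 and the 10 neutrophil genes 0.24. The neutrophil median was 0.02 without AJ1 and 0.50 without LZ2, and the T and NK cell median 0.11 without LZ2. Their summed signals overlapped between prefixes for B cells (5151 to 6417 on AJ, 5863 and 6354 on LZ), macrophages (28007 to 34786 on AJ, 28627 and 30040 on LZ) and neutrophils (4178 to 9293 on AJ, 4327 and 5425 on LZ). For T and NK cells they did not, at 3166 to 3536 on the AJ arrays and 2399 and 2773 on the LZ arrays. Igha, the heavy chain of immunoglobulin A, had the widest difference of the plasma cell list, at 4273 to 6709 on AJ against 1451 and 3462 on LZ. That difference of 1.24 did not pass (adjusted p 0.15). Cd74, the class II invariant chain, differed by -0.36 without passing and turned to 0.13 after quantile normalization.

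Markers of other tissues that a lung sample can hold gave no call between the prefixes where they were tested. Tg, Ucp1, Krt13, Ptcra and Glycam1 lay under the filter level and could not be called. The cardiac gene Myh6, expressed in the muscle of pulmonary veins, read 924 to 1290 on the AJ arrays and 732 and 1678 on the LZ arrays. The fat gene Adipoq read 49.0 to 208 on AJ and 152 and 558 on LZ, and the red cell gene Alas2 read 2010 to 2587 on AJ and 1827 and 4558 on LZ. The thyroid gene Tg stood at 4.9 to 9.2 on AJ and 7.3 and 12.5 on LZ, the lowest of the defining markers. Summed over the list, 9 measured red cell genes reached 34596 to 40316 on the AJ arrays and 46820 and 54208 on the LZ arrays, led by globins from the bright end of the scale. Hba-a1, the alpha globin, differed by -0.55 as deposited and 0.13 after quantile normalization. The 10 thymus and lymph node genes summed to 2334 to 2534 on AJ and 2896 and 2946 on LZ, and the part of the T and NK cell, red cell and thymus genes in the other differences was not tested.

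The LZ arrays of 42 weeks place the differences within the series. All 3 AJ arrays lay above both LZ arrays of 24 to 26 weeks in 1709 probe sets (22.9%) and below them in 1352 (18.1%). They lay above all 9 LZ arrays in 487 probe sets (6.53%) and below all 9 in 320 (4.29%). Of the probe sets past the test, 71 of 84 higher and 75 of 102 lower ones lay beyond all 9 LZ arrays; the test used these 24 to 26 week values, so this share is a description. Among the 30 genes with the largest differences named above, 23 did so, and Irgm2, Ms4a6c, Ccng1, Tnxb, Lclat1, Tcf7l1 and Pvr did not. The AJ arrays had a median correlation of 0.938 with the 42-week LZ arrays, against 0.949 for LZ2 and LZ3 with them. A comparison of run days within the LZ prefix at 42 weeks, LZ61 to LZ63 minus LZ22 to LZ25, called 112 probe sets (1.50%) in the same fit. Between that and the AJ comparison 8 calls were shared, 4.30% of the AJ calls and 7.14% of the 42-week calls, with no samples in common but a shared estimate of spread. Itpr2, Tnxb and Adh1 were among the shared calls, with adjusted p of 0.040, 0.029 and 0.045 in limma between the LZ run days at 42 weeks.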

How the data were processed

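RNA from A/J mouse lung was extracted with Trizol, biotin-labelled and hybridised to MG_U74Av2 arrays, per the labels' protocols. The deposited intensity values are linear MAS5 signals per the submitters' processing notes, and their version and scaling target were not given in the sources used here. With 2% trimmed from each end, every column had a mean of 500.3, so scaling preceded deposit and none was added. Detection calls and probe-level intensities were not used here.

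The 66 control probe sets were dropped from 12488. Among the 12422 others, 10833 had 1 gene symbol in the platform annotation, 396 had several and 1193 were not listed and are unnamed here. Values were log2-transformed with no pseudocount, and the 7453 probe sets with a mean over 12 arrays at or above the 40th percentile, a signal of about 108, were tested. Each gene was read on its brightest tested probe set (5731 genes, 893 with more than 1 tested probe set).

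The fit used limma 3.58.1 under R 4.3.3 with statmod 1.5.0 (lmFit and a two-sided eBayes, trended and robust) on 12 arrays in 4 groups by prefix and number range, which left 8 residual degrees of freedom. Adjusted p are from Benjamini-Hochberg over all 7453 probe sets at 5% false discovery, and each adjusted p of a gene is from this fit unless another normalization is named. Differences are AJ minus LZ on the log2 scale. Lists are described by counts and medians, with no set test. The share of all genes to set beside each count was 2.18%, 1.03% higher and 1.15% lower. Alternatives varied the normalization, the filter, the pseudocount, the variance model, the arrays fitted and the threshold.

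Named genes were up to 15 per direction with the largest difference among those past the test with no overlap between AJ and LZ values, up to 6 called members per list or the 2 of smallest p where none passed, and a few lung and interferon genes always. Signals on all 5 arrays are given for 12 of them. The members and lists were chosen with earlier results of these data known. On simulated data with the real spreads of the 7453 probe sets in this comparison, the fit recovered 18.8% of 1.5-fold, 68.4% of 2-fold and 95.2% of 4-fold changes, with 4.90% of calls false. The simulated noise was independent and normal, with no shift by run day or brightness, so a false share near 5% was built in. These shares therefore do not measure how many of the calls on the real arrays are false.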

Additional observations from a re-analysis of the deposited data

How the results depend on the processing

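No called probe set changed sign under an alternative, but the count of calls, 186 as reported (84 higher and 102 lower on AJ), moved with most of them. It was 312 (144 and 168) with the 5 arrays of 24 to 26 weeks only, 374 (164 and 210) without LZ63, and 381 (176 and 205) without LZ22, LZ24 and LZ63. It was 776 (397 and 379) with array weights and 121 (56 and 65) with no filter. Quantile normalization gave 60 higher and 65 lower, equal array medians 58 and 198, and eBayes without trend and robust 70 and 54. At 1% false discovery 24 passed (10 and 14), and at 5% with at least 2-fold 57 (33 and 24). Leaving out one array in turn gave 0 to 134 calls, 0 to 60 higher and 0 to 74 lower. Without LZ2 or LZ3 the remaining LZ array was assumed to vary like the other groups. A 60th percentile filter, a filter on the 5 arrays and a pseudocount gave 213, 185 and 189 calls, and cyclic loess, chosen after seeing the data, 139. Differences of genes that did not pass could change sign, and only examples are given. With quantile normalization Cd74 (0.13), Hba-a1 (0.13), Hbb-b2 (0.056), Sftpb (0.057) and Ager (0.039) turned positive. Without AJ2 so did Col9a1 (0.11, within a range of -0.53 to 0.11 over single arrays left out). The median of 11 of the 48 gene lists changed sign with quantile normalization. The cause was not tested, except that quantile normalization by its construction gives all arrays the same bright end. Of 74 named genes past the test, 41 were still called after quantile normalization. No paired analysis was possible because the AJ and LZ samples of 24 to 26 weeks share only the replicate number 2. The number of arrays limits the precision: log2 differences had standard errors with a median of 0.20.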

Other observations

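The heat shock, glycolysis, clock and lipid groups, none with a call, had medians near that of all genes. The 39 cytosolic and mitochondrial heat shock proteins had a median log2 difference of 0.02, with the chaperonin subunit Cct2 at 0.92 (adjusted p 0.083). The 32 glycolysis and hypoxia genes had a median of 0.04, with the hypoxia factor Hif1a at -0.28 and the glucose transporter Slc2a3 at -0.77 (adjusted p 0.19 and 0.24). Dimmer probe sets of Hif1a and Slc2a3 differed by -0.09 and -0.01. The 18 circadian clock genes had a median of -0.06, with the repressor Nr1d1 at -0.50 (adjusted p 0.15). The 48 genes of lipid synthesis and uptake had a median of -0.01, with Apoe, a lipid-carrying apolipoprotein, at -0.36 (adjusted p 0.18). Among 27 chemokines, cytokines and receptors, Csf1, the growth factor of macrophages, was at 0.76 (adjusted p 0.081). Complement factors and acute phase proteins (15 measured genes) gave no call, with a list median of -0.01, or -0.44 to 0.02 with one array left out. Their summed signals did not overlap, at 26416 to 31845 on AJ and 34904 and 35133 on LZ. In limma 4 of the 15 had an unadjusted p under 0.05, and 1 was called lower after quantile normalization. Other lists with no call stood further from the median of all genes, at 0.34 for plasma cells and -0.14 for fat. With one array left out, the plasma cell median ran from 0.05 to 0.46 and the fat median from -0.22 to 0.04.

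Several of the genes past the test were read by more than one tested probe set. For 31 called genes there were 37 further probe sets, of which 27 had the same sign as the one that stood for the gene and 7 passed the test with that sign. None of the 37 passed with the opposite sign (0 probe sets in limma). In another 24 genes only a dimmer probe set passed, and these were not counted among the 125.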
